A study of Mus musculus with 2 samples.

Results

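Chromatin sites bound by an anti-Rac1 antibody were examined at heat shock and DnaJ chaperone genes in mouse retina. Rac1 is a small GTPase of the actin cytoskeleton. The genes were chosen by a rule on their names, which was set with earlier results of these data known. Every peak was taken that the authors had assigned to a gene that fits the rule. Such a symbol begins with Hspa, Hspb, Hspd, Hspe, Hsph, Hsp9, Dnaja, Dnajb, Dnajc, or with Cct, Bag or Hsf and a digit. Pseudogenes were left out. This gave 18 of the 3078 peaks of the control list, at 17 genes, and 12 of the 1711 peaks of the list from retina with chronic ocular hypertension (COH), at 12 genes. The lists came from 2 CUT&Tag libraries, in which an antibody on chromatin directs the Tn5 transposase to cut and tag nearby DNA. One library was from the retina of untreated mice and 1 from the retina of mice after 1 week of COH, a model of glaucoma with raised pressure in the eye. Mice of both groups were wild type, of the C57BL/6 background and 7 weeks old, and the number of animals behind a library is not given in the sources used here.

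A single library stands for each condition, so the spread between replicates is unknown and the conditions were not tested against each other. Every difference between the lists is a difference between these libraries. The number of reads is unknown, and a background library was not analysed here. Peaks below the caller's cut-off are not listed, so for a gene without a listed peak binding was not measured as 0. Intervals are exact Clopper-Pearson 95% intervals and cover counting error only. Of 35 marker genes of retinal cell types, 5 (14.3%) were named in the control list and 2 (5.71%) in the COH list, near the shares of all protein-coding genes, 10.8% and 5.38%. The 10 markers of rods and cones, the photoreceptors, had no listed peak, nor had the 6 of ganglion cells and the 4 of bipolar cells. In control 2 of 4 markers of amacrine cells, 1 of 4 of Mueller glia, 1 of 4 of microglia and 1 of 3 of endothelium were named. In COH it was 1 of amacrine cells and 1 of Mueller glia. The markers per cell type were too few to read a presence or an absence.

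Molecular chaperones keep proteins folded. HSP70 proteins hold and release unfolded chains, DnaJ proteins bring them their clients and stimulate their ATPase, and HSP110 and BAG proteins help them exchange nucleotide. HSP90 matures kinases and receptors, small heat shock proteins hold aggregating proteins, and the ring-shaped chaperonins fold proteins such as actin and tubulin in the cytosol (CCT) or in mitochondria (HSP60, encoded by Hspd1). Heat shock factors (HSF) switch on many of these genes through heat shock elements, and a separate response to unfolded protein in the endoplasmic reticulum (ER) acts through ER stress elements. Retinal neurons carry a high load of protein synthesis, and chaperones have been studied in them as protective factors.

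Chaperone genes carried peaks mostly at their starts. Their shares with a peak at any position lay above those of protein-coding genes at large, although the control interval reached down to that share. Of 95 protein-coding genes that fit the naming rule, 17 (17.9%, 10.8 to 27.1) had a control peak, where the share over 21900 protein-coding genes was 10.8%. In COH 12 (12.6%, 6.7 to 21) had one, against 5.38% of all. Both lists named 8 of the genes (8.42%, 3.71 to 15.9), against 3.53% of all protein-coding genes. Within 1000 bp of the transcription start site, 15 (15.8%, 9.12 to 24.7) had a control peak, against 8.37% of all. In COH 10 (10.5%, 5.16 to 18.5) had one that near, against 3.8%. Except for the control share at any position, the lower bounds lay above the shares of all genes. The intervals cover counting error only and the genes were chosen with earlier results known, so these shares describe the family and do not set it apart.

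The 8 genes named in both lists were Hspa8, Hspb11, Hspd1, Cct8, Bag6, Dnajb1, Dnajb9 and Dnajc5b. The 9 named in control only were Hspa13, Hsph1, Hsp90aa1, Hsp90b1, Dnaja2, Dnajb5, Dnajc3, Dnajc13 and Cct2. The 4 named in COH only were Hspa4l, Hsp90ab1, Dnajc11 and Dnajc15. The remaining 74 genes had no listed peak, as was so for most protein-coding genes, of which 12.6% had one in either list. The 74 include the stress-induced genes Hspa1a, Hspa1b and Hspb1 and all 6 genes under the Hsf prefix. Other stress-inducible genes had a peak, Dnajb1 in both lists and Hsp90aa1 in control.

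**Figure D1:**
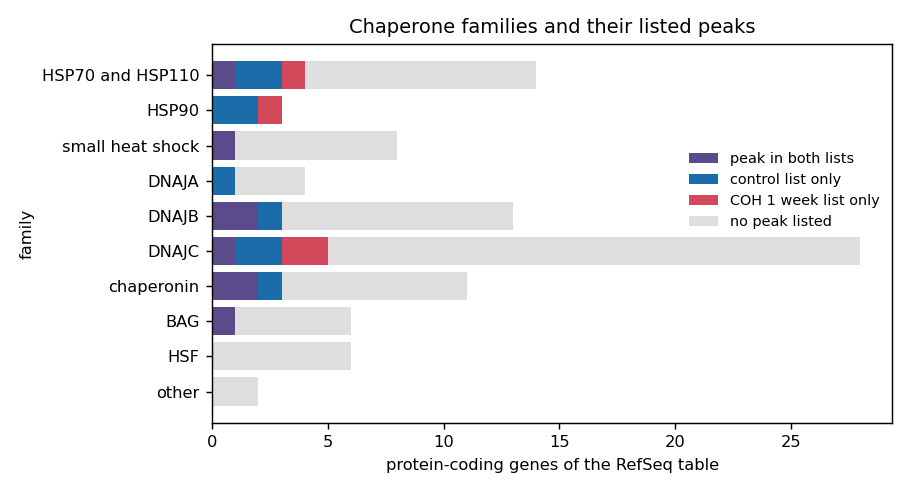
Number of protein-coding genes per chaperone family (x axis) that had a peak in both lists, in the control list only, in the COH list only, or no listed peak. All 3 HSP90 genes had a peak in 1 list each, while none of the 6 genes under the Hsf prefix had one. Of all 21900 protein-coding genes, 2770 (12.6%) had a peak in either list and 772 (3.53%) in both.

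The annotation placed the chaperone peaks at gene starts. In control 12 of 18 peaks (66.7%, 41 to 86.7) were of the promoter class, against 46.9% of all control peaks, and in COH 9 of 12 (75%, 42.8 to 94.5), against 40.6% of all COH peaks. In 5' UTRs lay 4 control peaks (22.2%) and 1 COH peak (8.33%), against 17.4% of all control and 11.6% of all COH peaks. The other 2 peaks of each list were distal intergenic (11.1% and 16.7%), against 18.5% of all control and 26.7% of all COH peaks. None lay in an intron, the class of 11.9% of all control and 16.4% of all COH peaks. Over all peaks, 61.6% in control and 51.1% in COH lay at most 1000 bp from the transcription start site (TSS). Of the chaperone peaks, 15 in control (83.3%, 58.6 to 96.4) and 10 in COH (83.3%, 51.6 to 97.9) lay that near. Among these, the summit lay within 300 bp of the TSS for 14 of 15 and 9 of 10, against 72.7% and 72% of all peaks that near a TSS.

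Overlapping peaks were found for 8 of the 18 control peaks (44.4%, 21.5 to 69.2), against 34.3% of all control peaks, and for 8 of the 12 COH peaks (66.7%, 34.9 to 90.1), against 61.8% of all COH peaks. The members' shares were thus near those of the whole lists. For the 10 control peaks without a partner, the nearest COH peak lay at least 12844 bp away. For the 4 COH peaks without one, the nearest control peak lay at least 61682 bp away. Control peaks with a partner had a median fold enrichment of 6.27 (4.41 to 12.36), by the authors' values over background, and those without had 5.05 (4.10 to 7.42). COH peaks with a partner had a median of 5.83 (4.37 to 10.66), and those without 4.20 (3.75 to 5.47). The fold range of the members without a partner was wide. In control it took in every peak with a partner except the distal Dnajc5b site, and in COH those of Bag6, Cct8 and Hspd1. Of all 1897 control peaks near a TSS, 1579 had a fold from 4.10 to 7.42. Of these, 29.8% (27.6 to 32.2) overlapped a COH peak. Of all 874 COH peaks near a TSS, 461 had a fold from 3.75 to 5.47. Of these, 56% (51.3 to 60.6) overlapped a control peak. Such wide ranges do not match peaks by strength.

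**Figure D2:**
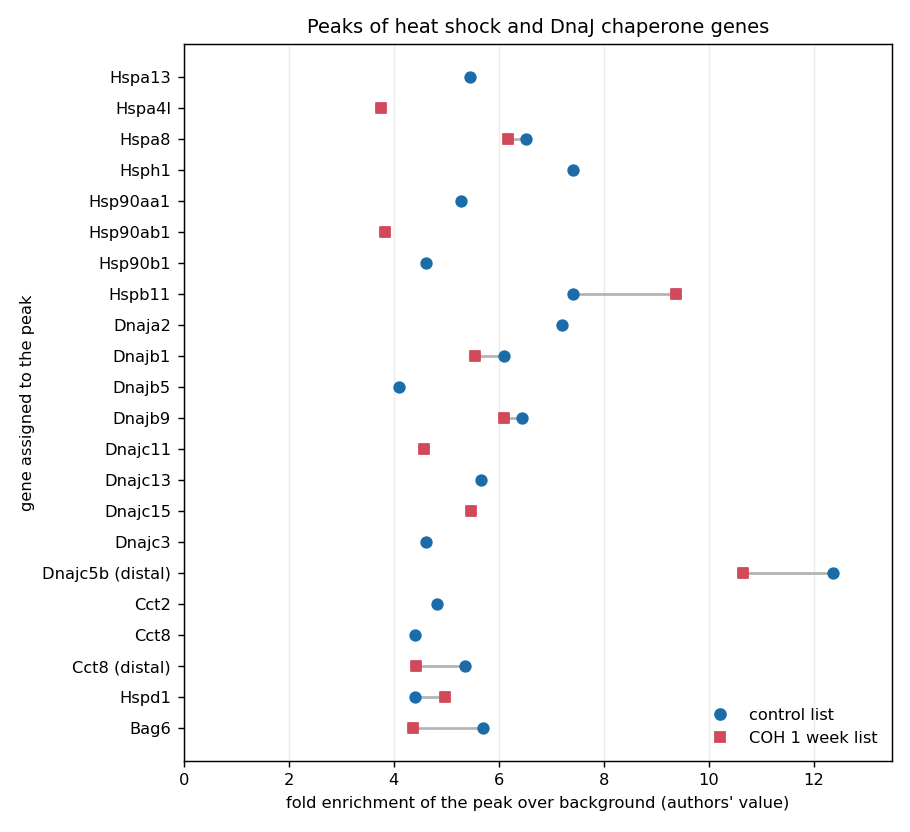
Fold enrichment over background as given by the authors (x axis) for each peak of a chaperone gene (rows), in the control list (circles) and the COH list (squares); grey lines join overlapping peaks. The distal Dnajc5b site had the highest fold in both lists, 12.36 and 10.66, and Hspb11 and Hspd1 were the 2 genes with a higher fold in COH.

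Over all 18 control peaks the median fold was 5.56, against 5.24 for the whole control list, and 12 of them lay above that list median. Over the 12 COH peaks it was 5.22, against 5.45 for the whole COH list, and 6 lay above that median. Chaperone peaks were thus of ordinary strength in both lists. Their pileups, the height of overlapping fragments at the summit, ran from 12 to 36 in control and from 10 to 39 in COH.

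HSP70 and HSP110 genes were led by Hspa8, which encodes the constitutive cytosolic HSP70 that uncoats clathrin vesicles. Its promoter peak reached a pileup of 36 (fold 6.52) in control and 26 (fold 6.17) in COH. In list coordinates the control peak covered 40712088 to 40712903 on chromosome 9, with its summit 1 bp from the TSS, and the COH peak covered 40712115 to 40712731, with its summit at 103 bp. Both extended over the start as the lists draw it, and the COH peak was the shorter one, 618 against 817 bp. The lists give this gene a length of 9104 bp and RefSeq 3927 bp, so the start of the lists may not be that of RefSeq. Hspa8 has many processed copies in the genome, and how reads with several matches were treated is not given in the sources used here.

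Hsph1, which encodes an HSP110 protein, had the promoter peak of highest fold of any gene named in control only, with a pileup of 21 and, at a fold of 7.42, rank 392 of 3078. The nearest COH peak lay 438314 bp away. Hspa13, a divergent HSP70 of microsomes, had a control promoter peak (pileup 13, fold 5.46). Hspa4l, another HSP110 gene, had a COH peak at -66 bp from its TSS (pileup 10, fold 3.75). Its -log10 q was 1.92. That peak ranked 1644 of 1711, close to the lowest -log10 q of the COH list, 1.82, and it had the lowest fold, pileup and -log10 q of the chaperone peaks. The other 10 of the 14 genes of these families, among them Hspa5, the HSP70 of the ER, and Hspa9, that of mitochondria, had no listed peak. The control list named 3 of the 14 and the COH list 2, against 10.8% and 5.38% of all protein-coding genes.

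The 3 HSP90 genes each had a peak in 1 of the lists. The control peak of Hsp90b1, which encodes the ER paralogue GRP94, lay over the promoter (pileup 18, fold 4.61). Hsp90aa1, the stress-inducible cytosolic form, had a control peak in a 5' UTR (pileup 20, fold 5.28), at 6178 bp inside the gene as the lists draw it. The lists give this gene a length of 12124 bp and RefSeq 5360 bp, and counted from the 3' end the peak lay 5530 to 5945 bp away. If the 3' ends coincide, the peak was therefore 170 to 585 bp before the RefSeq start. Hsp90ab1, the constitutive cytosolic form, had a COH promoter peak (pileup 19, fold 3.83), which ranked 1630 of 1711. Its summit lay 24 bp before the TSS. Thus 2 of the 3 genes appeared in control and the other in COH, and the folds of Hsp90b1 and Hsp90ab1 lay below the median of their list. Most protein-coding genes with a peak were likewise named in 1 list, as 772 of 2770 were in both.

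Among the 8 genes with an Hspb name and a number, 1 had a peak, against 12.6% of all protein-coding genes in either list. That gene, Hspb11, is no typical small heat shock gene and encodes IFT25, a subunit of the complex that carries cargo along cilia. Its promoter peak reached a pileup of 33 (fold 7.41, -log10 q 16.62) in control and 39 (fold 9.38, -log10 q 24) in COH. It ranked 394 of 3078 in control and 142 of 1711 in COH. This was the strongest promoter peak of the family in COH, and the single overlapping pair with the larger pileup there. RefSeq places the start of Lrrc42 159 bp before that of Hspb11 on the other strand. If the Hspb11 start of the lists is that of RefSeq, the peak lay over both starts and cannot be assigned to 1 of the genes; the Hspb11 models differ by 4559 bp in length, so this is uncertain. The small heat shock genes Hspb1, Hspb6 and Hspb8 had no listed peak.

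DnaJ genes numbered 45, of which the control list named 7, the COH list 5 and both lists 3. Over all protein-coding genes the shares were 10.8%, 5.38% and 3.53%. The J proteins of class A and B, close relatives of bacterial DnaJ, were found mainly with promoter peaks. Dnajb1, which encodes the main stress-inducible partner of HSP70, reached a pileup of 27 (fold 6.10) in control and 17 (fold 5.54) in COH. The control peak was 774 bp long with its summit at -222 bp from the TSS, and the COH peak was 376 bp long with its summit at 77 bp, so the summits lay 299 bp apart. Dnajb9, an ER protein that represses the stress sensor IRE1, had pileups of 19 and 15 and folds of 6.44 and 6.11, and its summits also lay 299 bp apart. Dnaja2, a cytosolic partner of HSP70, had a control promoter peak (pileup 18, fold 7.20) that ranked 442 of 3078. Dnajb5 had a control 5' UTR peak (pileup 21) with the lowest fold of the control members, 4.10.

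The 100 bases before the RefSeq start (build GRCm38.p6) of 3 DnaJ genes with promoter peaks and of Hspb11 are shown as examples of promoters of genes with a peak, with each CG pair in capitals. For Dnajb1 the outer of the RefSeq starts was taken. These stretches hold 11 to 14 CG pairs each, against 5 to 16 over all RefSeq starts of the 15 genes with a peak that had a promoter sequence. The gene models of RefSeq and the lists differ in length by 18 bp for Dnajb1, 17 bp for Dnaja2, 596 bp for Dnajb9 and 4559 bp for Hspb11, so for Dnajb9 and Hspb11 the start shown may not be the one under the peak. In order they lie at chr8:83608075-83608174 (plus strand), chr12:44210069-44210168 (minus), chr8:85555362-85555461 (minus) and chr4:107253592-107253691 (plus).
Dnajb1: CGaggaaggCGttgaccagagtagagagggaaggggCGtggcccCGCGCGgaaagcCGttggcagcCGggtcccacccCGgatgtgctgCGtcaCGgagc
Dnajb9: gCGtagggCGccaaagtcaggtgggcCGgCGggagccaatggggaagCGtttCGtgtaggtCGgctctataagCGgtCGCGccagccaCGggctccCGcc
Dnaja2: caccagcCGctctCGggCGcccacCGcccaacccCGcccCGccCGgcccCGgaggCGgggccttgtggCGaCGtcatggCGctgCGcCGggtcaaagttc
Hspb11: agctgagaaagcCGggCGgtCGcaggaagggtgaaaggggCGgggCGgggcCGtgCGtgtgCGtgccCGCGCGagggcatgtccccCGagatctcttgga

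Class C, with 28 genes, holds J proteins of many organelles, and of its 5 genes with a peak 4 were named in 1 list. Of all 2770 protein-coding genes with a peak in either list, 772 were in both. Dnajc3, which encodes the ER co-chaperone p58IPK (control promoter peak, pileup 14, fold 4.62), and Dnajc13, an endosomal protein (5' UTR, 17 and 5.66), were named in control. Dnajc15 and Dnajc11, which encode proteins of the inner mitochondrial membrane and of its cristae contacts, were named in COH, with pileups of 13 each and folds of 5.47 and 4.57. The Dnajc15 peak lay in a 5' UTR, 195 to 690 bp inside the gene, and the Dnajc11 peak over the promoter.

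Dnajc5b, which encodes a cysteine string protein, carried the peak of highest fold of the family in both lists, but far from its start. The site was distal intergenic, at 19516381 to 19516817 on chromosome 3 in control and 19516381 to 19516815 in COH, at -45942 and -45944 bp from the TSS. Its pileup was 36 in control and 33 in COH, with folds of 12.36 and 10.66. It ranked 56 of 569 distal peaks by fold in control and 61 of 457 in COH, so the lists hold many distal sites of higher fold. The left edge was the same base in both lists, as it was for 89 of 1060 overlapping pairs (8.4%). The gene was assigned as the nearest one, and no value here ties this site to Dnajc5b.

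**Figure D3:**
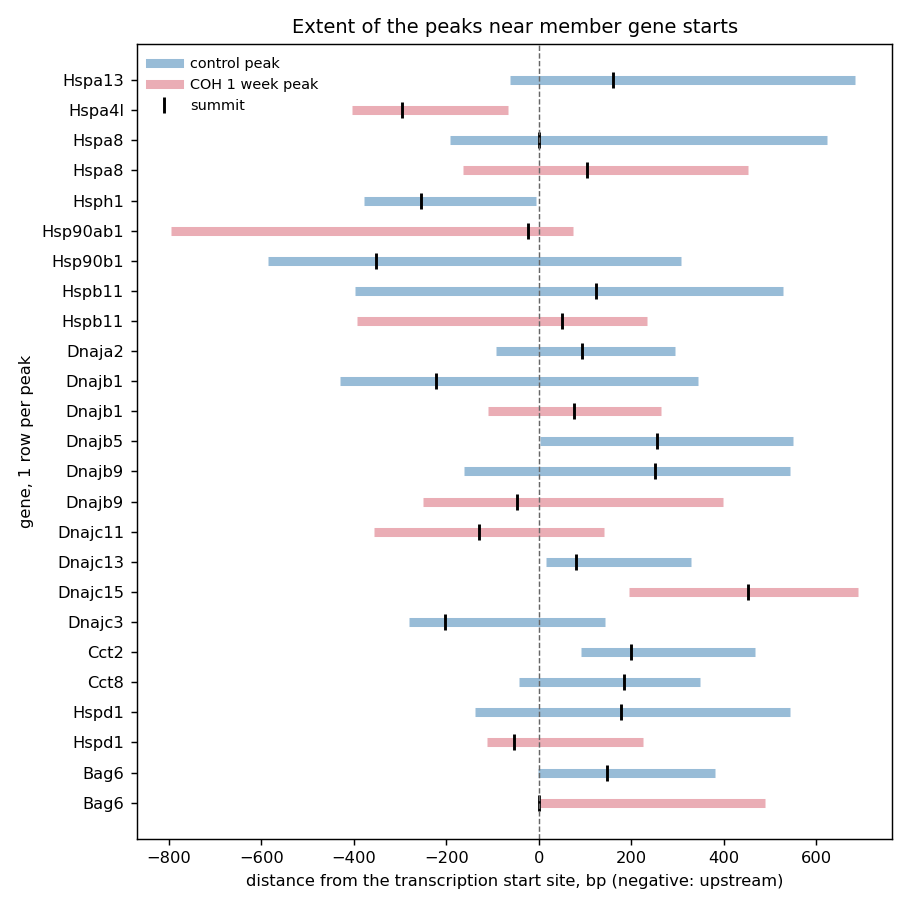
Extent of each chaperone peak within 1000 bp of a TSS (bars; x axis, distance from the TSS in bp, negative upstream) in the control and COH lists, with the summit as a black tick. Of the 15 control peaks, 14 have their summit within 300 bp of the TSS, and of the 10 COH peaks, 9.

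Chaperonin genes had peaks at 3 of 11 members in control and 2 in COH, against 10.8% and 5.38% of all protein-coding genes. Hspd1, the mitochondrial chaperonin, had a promoter peak in both, reaching a pileup of 18 (fold 4.41) in control and 15 (fold 4.97) in COH. The control peak reached from -138 to 543 bp around the TSS with its summit at 177 bp, and the COH peak from -112 to 226 bp with its summit at -53 bp. Cct8, a subunit of the cytosolic ring, had a weak control promoter peak (pileup 12, fold 4.41) that had no COH partner. It also had a distal peak at -12968 bp in control (21 and 5.36) and -12887 bp in COH (20 and 4.43), which overlapped and make Cct8 a gene of both lists. Cct2, another subunit, had a control 5' UTR peak (pileup 14, fold 4.83). The subunits Cct3, Cct4, Cct5, Cct6a, Cct6b and Cct7 had no listed peak.

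Over all protein-coding genes 12.6% had a peak in either list, and of the 6 BAG genes Bag6 alone had peaks. It encodes a chaperone that guides tail-anchored membrane proteins and marks misfolded ones for breakdown. Its promoter peak reached a pileup of 21 (fold 5.70) in control and 12 (fold 4.37) in COH, the lowest COH to control ratio of pileup among the pairs, 0.571. The peaks began at the same base, 2 bp before the TSS.

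Among the 8 overlapping pairs the pileup was higher in control in 7, against 70.1% of all 1060 overlapping pairs. The median COH to control ratio was 0.811 (0.571 to 1.18), and 0.852 over all pairs. The ratios were 0.571 for Bag6, 0.63 for Dnajb1, 0.722 for Hspa8, 0.789 for Dnajb9, 0.833 for Hspd1, 0.917 for Dnajc5b, 0.952 for the distal Cct8 site and 1.18 for Hspb11. The scaling of the pileups is not stated, and the members' median lay close to that of all pairs. By fold, 6 of the 8 pairs were higher in control, where over all pairs it was 53.9%.

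**Figure D4:**
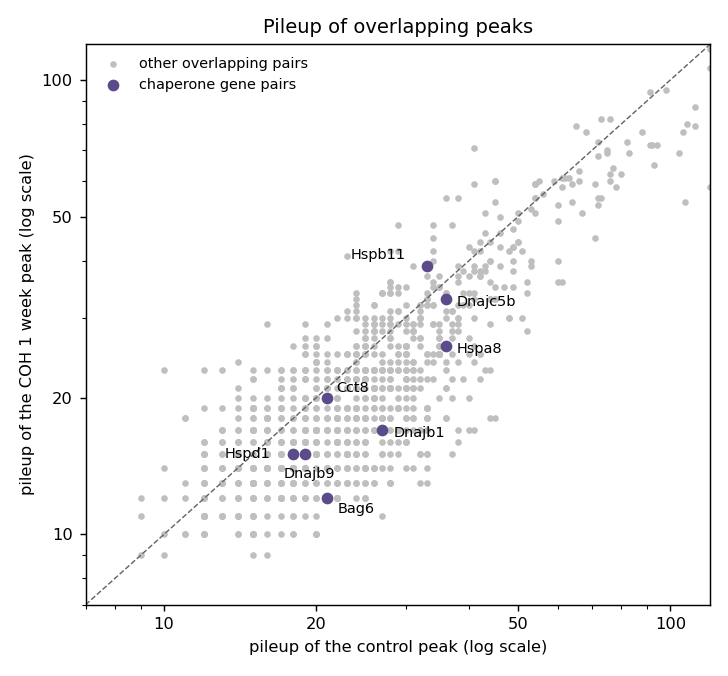
Pileup of overlapping peaks in the control list (x axis) and the COH list (y axis), both on a log scale, for the 8 chaperone pairs (labelled) and all other pairs; the dashed line marks equal pileup, and 50 of the 1060 pairs lie beyond the axes. Hspb11 alone among the chaperone pairs lies above the line, and Bag6 lies farthest below it.

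Heat shock elements were looked for in RefSeq promoters, from 250 bases before to 50 after the start. The table held 15 of the 21 genes with a peak; Dnajc11, Dnajc5b, Hsp90aa1, Hsp90ab1, Hspa13 and Hspa8 were not among them. An element was read as 2 inverted units, GAANNTTC or TTCNNGAA, which are their own reverse complements and can overlap each other. Of the 15 genes 3 held one (20%), as did 19 of 62 chaperone genes without a peak (30.6%) and 15.7% of all protein-coding genes. Among protein-coding genes with a peak within 1000 bp of the TSS the share was 9.97% in control and 11.1% in COH. With 3 inverted units the counts were 2 of 15 (13.3%), 2 of 62 (3.23%) and 0.595%. For genes with a control or a COH peak that near they were 0.602% and 0.149%. The chaperone genes with the longer element were thus Hspd1 and Hsph1, with a peak, and Dnajb6 and Hspe1, without one. A match is a string of letters, and binding of a heat shock factor was not measured.

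The elements at Hspd1, Hsph1 and Cct2 are shown, 30 bases each with the element in capitals, as the ones at genes with a peak, followed by those of Dnajb6, Hspa1a and Hspb1 from genes without a listed peak. They lie in GRCm38.p6 at chr1:55088053-55088082 (minus strand), chr5:149636351-149636380 (minus), chr5:149636280-149636309 (minus), chr10:117063399-117063428 (minus), chr5:29735843-29735872 (plus), chr17:34972242-34972271 (minus) and chr5:135887791-135887820 (plus).
Hspd1, 4 units: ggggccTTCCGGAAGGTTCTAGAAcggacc
Hsph1, 2 units before the start: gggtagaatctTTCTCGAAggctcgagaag
Hsph1, 3 units after the start: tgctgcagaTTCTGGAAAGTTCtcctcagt
Cct2, 2 units: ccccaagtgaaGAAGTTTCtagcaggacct
Dnajb6, 3 units: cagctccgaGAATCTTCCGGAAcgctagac
Hspa1a, 2 units: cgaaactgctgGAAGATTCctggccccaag
Hspb1, 2 units: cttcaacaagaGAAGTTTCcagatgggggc

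The element of Hspd1 lay inside the peaks of both lists, if the outer RefSeq start and the TSS of the lists are the same base. The gene models differ by 2 bp in length. Counted from that start, the element covered 167 to 184 bp, the control summit lay at 177 bp and the COH summit at -53 bp. RefSeq has an inner Hspd1 start as well, and the start of Hspe1, the co-chaperonin gene on the other strand, lies 216 bp before it. The same element is thus within the promoter window of Hspe1, which neither list names, and a peak over this shared start was assigned to Hspd1 alone. At Hsph1 the element before the start, at -33 to -26 bp, fell inside the control peak, which reached from -377 to -7 bp, and the one after the start did not. The Hsph1 models differ by 2434 bp in length, so this placement is less certain.

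An ER stress element, CCAAT and CCACG with 9 bases between them on either strand, was found at 2 of the 15 genes with a peak, Hsp90b1 and Dnajc3. It was found at 1 of 62 chaperone genes without a peak, Hspa5, and at 0.166% of all protein-coding genes. These elements are shown because all 3 genes encode ER chaperones of the unfolded protein response, with the element in capitals. They lie in GRCm38.p6 at chr10:86705633-86705661 and chr10:86705528-86705556 (minus strand), chr14:118937822-118937850 (plus) and chr2:34772020-34772048 (plus).
Hsp90b1, at -212 bp: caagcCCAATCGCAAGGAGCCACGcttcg
Hsp90b1, at -107 bp: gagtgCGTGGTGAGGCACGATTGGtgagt
Dnajc3, at -105 bp: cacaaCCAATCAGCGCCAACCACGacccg
Hspa5, at -65 bp: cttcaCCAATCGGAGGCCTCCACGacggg

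If the RefSeq start and that of the lists are the same base, the element of Dnajc3 lay inside the control peak, which reached from -281 to 143 bp, and both elements of Hsp90b1 inside its control peak, from -585 to 308 bp. The gene models differ by 49 bp in length for Dnajc3 and by 697 bp for Hsp90b1, and a shift of that size at the start would put the Hsp90b1 elements outside the peak. Neither gene had a COH peak, and Hspa5 had none in either list. The motif was chosen after the genes with a peak had been seen.

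Promoters of chaperone genes with a peak were rich in G and C, as were those of other genes with a peak. Their median GC content was 66.7% (55 to 75) and their median number of CG pairs 30 in 300 bases. For all protein-coding genes with a control peak near the TSS the medians were 65.3% and 25, and for those with a COH peak 66.3% and 26. Chaperone genes without a peak had medians of 61.2% and 21, and all protein-coding genes 56.3% and 13. Whether base composition accounts for which chaperone genes have peaks was not tested.

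Beyond the named families, 95 co-chaperones and other folding factors were looked up. The control list named 14 (14.7%), the COH list 7 (7.37%) and both lists 4, against 10.8%, 5.38% and 3.53% of all protein-coding genes. ER folding genes had 5 of 21 in each list. P4hb, a protein disulfide isomerase, had overlapping promoter peaks with pileups of 26 and 19, and Fkbp2, an ER prolyl isomerase, had overlapping 5' UTR peaks with 38 and 36. Sdf2l1, an ER partner of DnaJ proteins (fold 4.95), had a COH promoter peak and Xbp1, a transcription factor of the unfolded protein response (4.25), a control 5' UTR peak. The COH peak assigned to Manf, a secreted ER stress protein, lay -50048 bp from its TSS in an intron.

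HSP70 co-factors had 4 of 10 genes in control and 1 in COH, against 10.8% and 5.38% of all protein-coding genes. Hyou1, the HSP110 protein of the ER, had overlapping promoter peaks with folds of 4.79 in control and 4.99 in COH. Promoter peaks in control only were found at Tomm70a, a mitochondrial import receptor that binds HSP70 and HSP90 (fold 7.65), St13, which stabilises the client-bound state of HSP70 (6.28), and Grpel2, a mitochondrial nucleotide exchange factor (5.31). HSP90 co-chaperones had 1 of 22 in control, Chordc1 (fold 5.98, in a 5' UTR), and 0 in COH. Chaperonin and prefoldin partners had 1 of 17 and 0, mitochondrial folding factors 1 of 10, Trap1, the mitochondrial HSP90 (fold 4.70), and 0. Among genes of aggregate clearance and stress, 2 of 15 were named in control and 1 in COH. Eef1a1, a translation elongation factor, was the gene in both, through overlapping peaks with pileups of 22 and 23 that lay 6875 and 6997 bp from the TSS of the lists.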

How the data were processed

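Retinal nuclei were profiled by CUT&Tag with an antibody to Rac1 and 15 PCR cycles, per the labels. The submitters' processing notes name cutadapt 1.9.1, Bowtie2 and the build mm9, with no role or order; no source used here gives the peak caller or how duplicates were treated. The pileup (signal), the fold enrichment (a ratio), the -log10 p and -log10 q, and positions, distances and gene models (other values) are those deposited by the authors, 1 list per library. The -log10 headings held a spreadsheet error and were read from their place. Gene starts of 1 of 21 members lay within 100 bp of GRCm38.p6 (median offset 143 kb), so the build of the list coordinates is unsettled, and RefSeq positions are kept apart.

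Genes were matched by symbol or unique synonym to 21900 RefSeq protein-coding genes, and peaks sharing at least 1 bp counted as overlapping (Python 3.11.15, pandas 2.3.3; intervals from scipy 1.17.1). The overlap and motif steps were tested on simulated data. The members, gene lists and alternatives were chosen with earlier results of these data known. Named were all members of the HSP70, HSP90, small heat shock, chaperonin, BAG and HSF families and of DnaJ with a peak, and up to 12 folding factors, those in both lists first and then by fold; Dnajb6, Hspe1, Hspa5 and other members without a peak were named after their values were seen.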

Additional observations from a re-analysis of the deposited data

How the results depend on the processing

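No paired analysis was possible because each group holds 1 library. Of 84 alternative values, 56 stayed within 1.5 times the main count and 28 did not, mostly small counts. A cut at the median of a list removes much of any set of peaks of ordinary strength, so falls under it are largely built in. Above the median fold of each list, the genes with a peak fell from 12 to 6 in COH, COH promoter peaks from 9 to 4, the HSP90 genes from 2 to 1 in control and from 1 to 0 in COH, chaperonin genes from 3 to 1 and from 2 to 0, and in COH HSP70 and HSP110 genes from 2 to 1 and BAG genes from 1 to 0. Folding factors fell from 14 to 5 in control and from 7 to 2 in COH, and overlapping peaks from 8 to 5 in each list. With the control list reduced to the length of the COH list, 12 control genes had a peak, as many as in COH. Control promoter peaks then numbered 8, against 9 in COH. In that reduced control list HSP90 genes numbered 1, chaperonin genes 1 and folding factors 7. With a -log10 q of at least 5, control had 1 chaperonin gene and 7 folding factors, and COH had 6 genes with a peak, 1 HSP70 or HSP110, 0 HSP90, 1 DNAJC, 1 chaperonin and 0 BAG genes, and 3 folding factors. Within 1000 bp of the TSS, 1 HSP90 gene remained in control, since the Hsp90aa1 peak lay farther away, and 1 chaperonin gene in COH, where the Cct8 peak was distal. A reciprocal overlap of 50% left 5 overlapping peaks in each list. The control count of genes with a peak stayed within 1.5 times of 17 under all its alternatives. Pileups of 10 to 39 and an unknown number of reads limit what these lists can separate.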
